A study of Homo sapiens with 6 samples.

Results

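The neuregulin and EGF receptor family was examined for sites occupied by the zinc finger protein ZNF469 in LX-2 cells. The family was taken as 10 genes, the ligand genes NRG1, HBEGF, AREG, EREG, TGFA and BTC and the receptor genes EGFR, ERBB2, ERBB3 and ERBB4. These genes were selected on family membership and on the number of ZNF469 regions already seen at some of them, so the counts of regions below describe the choice and support nothing by themselves. A region belonged to a gene when it overlapped by at least 1 bp the gene body or the 50 kb on either side (hg38, GENCODE version 44), and the body with both flanks is called the window. The windows of the 10 genes held 59 of the 19108 regions of full-length ZNF469 and 0 of the 54 regions of the zinc finger deletion.

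CUT&RUN, in which an antibody tethers a nuclease to its target and the DNA released there is sequenced, was carried out with an antibody against ZNF469. LX-2 is an immortalized line of human hepatic stellate cells, the liver cells that lay down collagen. Cells of the full-length group carried an inducible piggyBac transgene for ZNF469, and cells of the dZF group carried the same vector with most of the zinc fingers of ZNF469 removed. Both groups were grown with a stabilized form of ascorbic acid and received 1 ug/mL doxycycline for 24 h, so both held an induced transgene, and no uninduced or antibody control was analysed here. Each construct was in its own selected line, so the construct and the line cannot be told apart. The labels also give each group a clone number and do not state if a clone of cells or of plasmid is meant. Each group had 3 libraries, which the authors merged into 1 list of regions, so no value below has a replicate error. The 95% limits given beside pileups and shares cover counting error only.

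Ligands of the EGF family are made as membrane proteins, and the sheddases ADAM10 and ADAM17 release most of them. They bind EGFR, ERBB3 or ERBB4 on the cell surface, and the receptors pair with each other, often with ERBB2, which has no known ligand of its own, or with ERBB3, whose kinase is nearly inactive. The pairs signal through RAS and MAP kinase and through PI3 kinase and AKT, and the AP-1 factors FOS and JUN are among the targets of this signal. In the liver, EGFR and its ligands are known for their part in regeneration and in the growth of activated stellate cells.

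Sequences are shown first for 7 stretches at 5 members, as examples from the 28 member regions that hold the AP-1 site TGAGTCA. AP-1 sites were read on both strands, so the reverse complement TGACTCA counts as well. All sequences are the hg38 reference, 5′ to 3′ on the plus strand, with AP-1 sites in capitals. The ERBB4 and AREG stretches are whole regions, the first EREG stretch is the first 200 bases of its region, and the others are 201 bases centred on the summit. The ERBB4 and the first EREG stretch hold 2 sites each and the others hold 1.
ERBB4 intron 1, chr2:212392021-212392292: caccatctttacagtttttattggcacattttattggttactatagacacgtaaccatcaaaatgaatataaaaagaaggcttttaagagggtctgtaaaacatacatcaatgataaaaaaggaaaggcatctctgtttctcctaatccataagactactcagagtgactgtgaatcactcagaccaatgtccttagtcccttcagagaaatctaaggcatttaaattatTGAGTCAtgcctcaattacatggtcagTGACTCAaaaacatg
AREG intron 4, chr4:74451230-74451420: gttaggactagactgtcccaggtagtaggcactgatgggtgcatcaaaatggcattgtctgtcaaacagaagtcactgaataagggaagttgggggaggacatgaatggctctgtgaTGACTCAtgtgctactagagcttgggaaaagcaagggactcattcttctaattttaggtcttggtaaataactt
EREG intron 1, chr4:74374647-74374846: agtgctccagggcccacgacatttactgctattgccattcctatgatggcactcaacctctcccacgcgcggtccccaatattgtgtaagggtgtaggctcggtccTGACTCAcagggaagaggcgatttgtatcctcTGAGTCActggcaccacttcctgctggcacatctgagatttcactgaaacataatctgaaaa
between EREG and AREG, chr4:74394915-74395115: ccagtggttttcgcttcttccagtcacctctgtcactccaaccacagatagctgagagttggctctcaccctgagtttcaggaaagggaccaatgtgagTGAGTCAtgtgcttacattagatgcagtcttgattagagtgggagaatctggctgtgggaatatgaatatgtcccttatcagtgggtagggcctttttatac
upstream of EGFR, chr7:54995932-54996132: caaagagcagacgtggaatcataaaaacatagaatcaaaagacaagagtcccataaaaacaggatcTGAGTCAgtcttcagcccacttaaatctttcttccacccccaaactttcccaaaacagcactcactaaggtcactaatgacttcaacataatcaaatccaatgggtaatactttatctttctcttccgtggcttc
EGFR intron 1, chr7:55065195-55065395: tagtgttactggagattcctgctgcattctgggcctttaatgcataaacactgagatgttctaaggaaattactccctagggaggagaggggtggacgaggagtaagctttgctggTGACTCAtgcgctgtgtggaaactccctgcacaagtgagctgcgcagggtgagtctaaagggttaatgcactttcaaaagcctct
downstream of HBEGF, chr5:140310979-140311179: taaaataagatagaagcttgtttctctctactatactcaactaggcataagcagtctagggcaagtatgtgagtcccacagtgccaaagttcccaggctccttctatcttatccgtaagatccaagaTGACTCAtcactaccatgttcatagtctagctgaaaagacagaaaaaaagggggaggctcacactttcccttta
In the stretch between EREG and AREG the site lay 2 bp from the summit, upstream of EGFR it lay 31 bp from it, and in EGFR intron 1 it lay 19 bp from it. In the EREG intron the 2 sites lay 376 and 344 bp to the left of the summit, at the other end of the region. The AREG site lay 25 bp and the HBEGF site 30 bp from the summit. These examples do not stand for all sites. Over all member regions, 13 of 32 sites (40.6%) lay within 50 bp of the summit.

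Full-length regions were found in the windows of 8 of the 10 genes, and 65.1% of all 20033 protein-coding windows held at least 1. In the gene bodies proper, 6 of the 10 genes held a region, where 33.6% of all protein-coding bodies did. These shares were not matched for gene length. Among other genes of 0.5 to 2 times the length, the median body held 2.00 regions for NRG1 and ERBB4 and 1.00 for EGFR. NRG1 held 20 regions, EGFR 10, HBEGF, ERBB3 and ERBB4 7 each, AREG 5, EREG 4 and ERBB2 1. TGFA and BTC held 0. AREG and EREG are neighbours and share 2 of these regions, which were counted once in all sums. Of the 59 regions, 38 overlapped a member's body and 21 lay in the flanks. Within 3 kb of an annotated transcript start lay 14 (23.7%), against 39.3% of the whole list. For 47 the nearest protein-coding start was that of a member. The remaining 12 were nearest to other genes of the flanks and are described with HBEGF, ERBB2 and ERBB3.

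**Figure D1:**
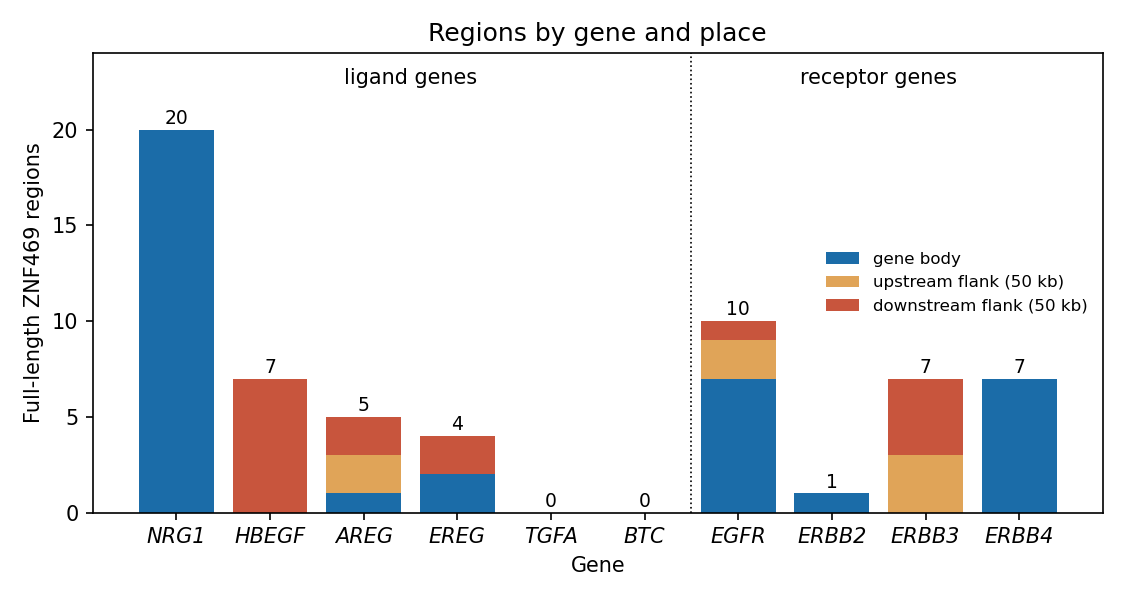
Number of full-length ZNF469 regions (vertical axis) in the body, upstream flank and downstream flank of each of the 10 genes, ligand genes left and receptor genes right. All 20 regions of NRG1 and all 7 of ERBB4 are in the gene body, all 7 of HBEGF and all 7 of ERBB3 are in the flanks, and TGFA and BTC have 0.

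Ligand windows held 34 regions in 1977 kb and receptor windows held 25 in 1825 kb, which is 1.72 and 1.37 regions per 100 kb. The whole genome, with all sequence far from genes, held 0.619 per 100 kb. As the genes were chosen with region counts known, the higher densities in their windows support nothing by themselves. Without NRG1 the ligand windows held 14 regions in 660 kb, or 2.12 per 100 kb. In the gene bodies alone the densities were 1.62 per 100 kb for ligands and 1.05 for receptors. Within 3 kb of a transcript start lay 4 of the 34 ligand regions (11.8%) and 10 of the 25 receptor regions (40.0%). A member had the nearest protein-coding start for 29 ligand and 18 receptor regions. Comparing the windows is thus in part a comparison of neighbouring genes. Fold enrichment, the summit pileup over the local background with 1 added to each, had a median of 6.94 in ligand windows and 7.25 in receptor windows. The whole list had a median fold of 7.36 with a middle 50% of 6.32 to 8.66, so both medians were inside that range. Median pileup, the number of fragments over the summit, was 21 in either set and 20 over the list. Of the 59 regions, 23 were above the list median in fold and 28 were above it in −log10 p-value. Ligand and receptor regions were therefore of ordinary strength for this list. The difference between ligands and receptors was not tested.

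**Figure D2:**
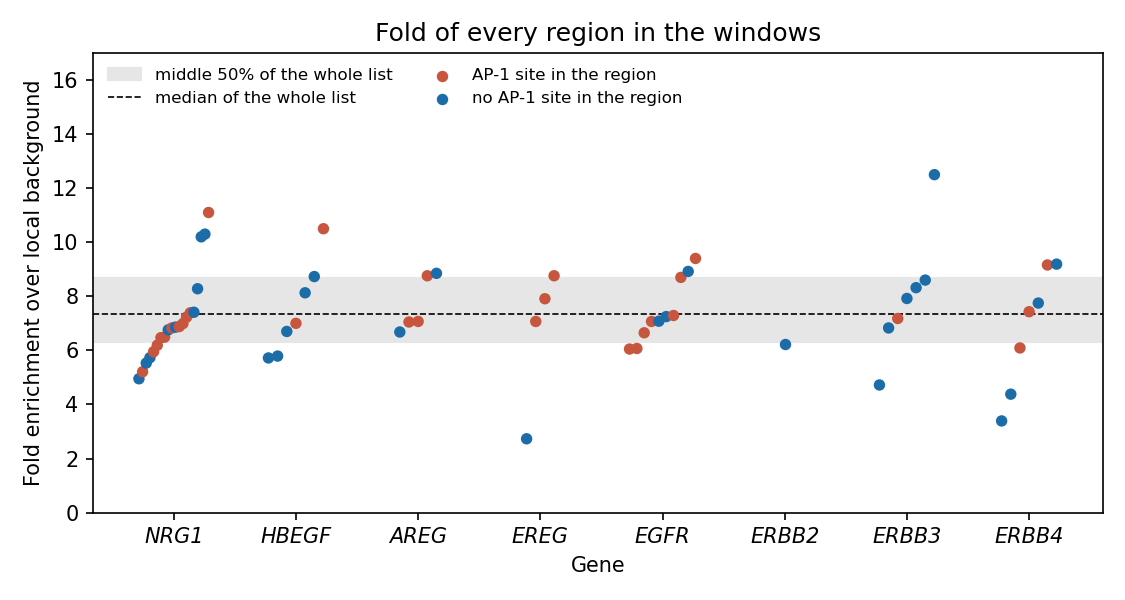
Fold enrichment over local background (vertical axis) of every region in the windows of the 8 genes that had one, with regions holding an AP-1 site in red and the others in blue. The grey band is the middle 50% of the whole list, from 6.32 to 8.66, and the dashed line its median of 7.36. The highest point is 12.5 at ERBB3 and the lowest is 2.73 at EREG.

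NRG1 encodes neuregulin 1, a ligand of ERBB3 and ERBB4 whose isoform types start from promoters spread over more than a megabase. The gene runs over 1216 kb on chromosome 8 (31639222 to 32855666, plus strand), and its 20 regions made up the largest count among the 10 genes. Of the 212 other protein-coding genes between 0.5 and 2 times its length, the median window held 3.00 regions and 4 (1.89%) held at least as many as NRG1. Over the 10 genes this share ran from 1.54% for HBEGF to 100% for TGFA and BTC. The members were chosen with region counts known, so these ranks describe the choice and support nothing. In regions per 100 kb NRG1 was at 1.52, below HBEGF at 6.15, ERBB3 at 5.52, AREG at 4.55, EGFR at 3.42 and EREG at 3.24. ERBB2 was at 0.702 and ERBB4, nearly as long as NRG1, at 0.554. For the short genes most of the window is flank, and HBEGF and ERBB3 held 0 regions in their bodies. In regions per 100 kb of body, AREG was at 10.1, EREG at 8.47, EGFR at 3.63 and ERBB2 at 2.35. NRG1 was at 1.64 and ERBB4 at 0.602. The body values of AREG and ERBB2 rest on 1 region each.

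Annotated NRG1 starts that lay within 2 kb of each other were joined, which gave 9 promoters, named P1 to P9 in the direction of transcription. P1 joins several far upstream starts, that of the type II isoforms among them. P4, at 909 kb from P1, is the start of the type I isoforms, and P7, at 1008 kb, that of the type III isoforms. The isoform types are background and were not read from the annotation. P2, P3 and P9 have no protein-coding transcript in the annotation. A single region lay within 3 kb of any of these starts, 5 lay within 10 kb and 8 within 20 kb, and the median distance from a summit to the nearest start was 28.5 kb. Counted from protein-coding transcripts only, the median distance was 147 kb. The regions of NRG1 were thus mostly in introns away from the promoters.

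The region at a promoter was that of P4. It lay on chromosome 8 from 32548889 to 32549304, with its summit 0.371 kb from the nearest start, in intron 1 of the MANE Select transcript. Its pileup was 21 (13.0 to 32.1), its fold was 6.76 and its GC content was 72.8%, against a median of 38.5% over the 20 regions. It held no AP-1 site. P1, P7 and P8 had their nearest region at 37.6, 54.1 and 6.38 kb.

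Along the gene the regions fell into runs. Between P1 and P2 there were 4 regions in 531 kb, with folds up to 8.28. After them came 405 kb without a region, from 31821972 to 32227015, a stretch that contains P2 and P3. The longest run followed P3, where 8 regions lay within 117 kb (32227015 to 32343952) and the next region was 205 kb further on. These 8 included the 3 highest folds of NRG1. Over all 20 NRG1 regions the median fold was 6.84, against 7.36 for the whole list, and the median −log10 p-value 13.7, against 15.0. Of the 20, 6 were above the list median in fold and 6 were above it in −log10 p-value. The first of the run, from 32227015 to 32227970, had 11.1-fold enrichment at a pileup of 55 (41.4 to 71.6), and it lay 6.22 kb from P3. It ranked 970 of 19108 by fold and 262 by pileup. The region from 32343400 to 32343952 had a fold of 10.3 with a pileup of 35 (24.4 to 48.7). The region from 32334389 to 32334858 had a fold of 10.2 with a pileup of 50 (37.1 to 65.9). Its neighbour from 32331514 to 32332043 had the third highest pileup of the gene, 37 (26.1 to 51), over a local background of 4.54 fragments, and so a fold of only 6.86. The rest of the run had pileups of 15 to 22.

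Downstream of P4, 4 regions lay within 29.5 kb (32548889 to 32578410), all in intron 1 of the MANE Select transcript, with pileups of 12 to 21. No region lay between P5 and P7. After P7 there were 4 regions in 64.7 kb, 2 in intron 5, 1 in intron 6 and 1 over exon 12 of the MANE Select transcript, with pileups of 16 to 21. All 4 of these held an AP-1 site, against 2 of the 4 regions downstream of P4, 4 of the 8 in the run after P3 and 1 of the 4 before P2. Over the whole list 44.1% of regions held the site, and the differences between these small counts were not tested. By the starts of protein-coding transcripts alone, 12 regions fell between P1 and P4 in 909 kb (1.32 per 100 kb), 4 between P4 and P5 in 57.4 kb (6.96 per 100 kb), 2 between P7 and P8 and 2 after P8. The count was therefore highest between P1 and P4 and the density highest just after P4.

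**Figure D3:**
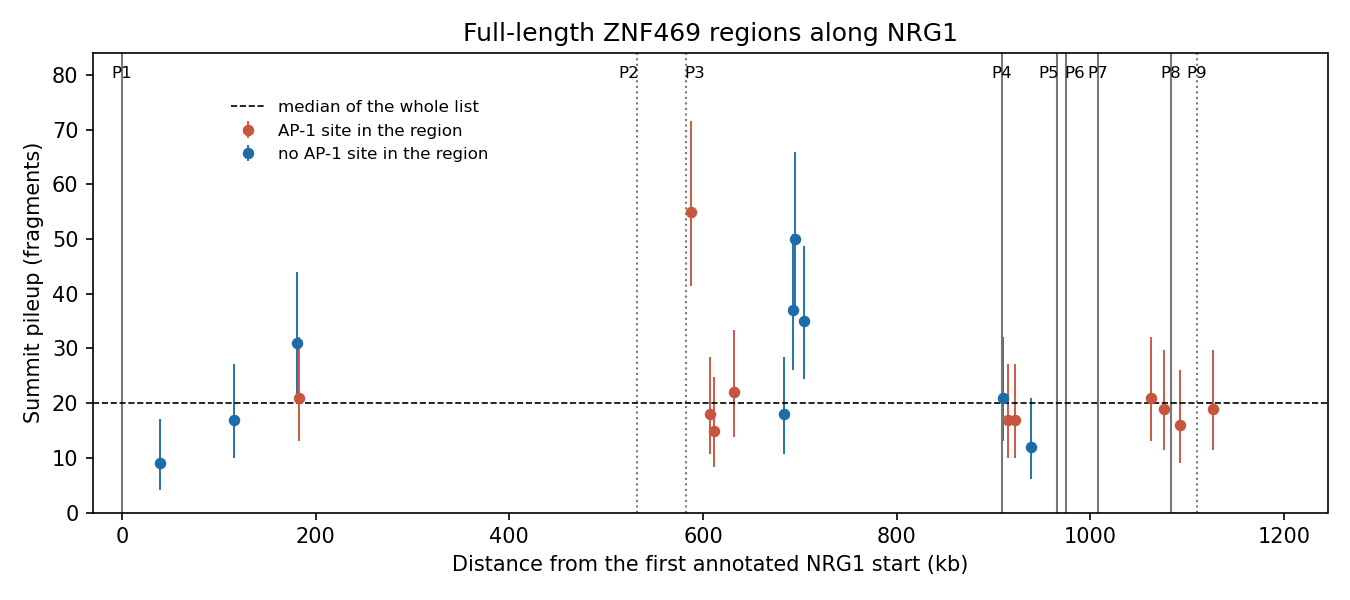
Summit pileup in fragments with exact 95% Poisson limits (vertical axis) for the 20 NRG1 regions by distance in kb from the first annotated start (horizontal axis). Red points hold an AP-1 site and blue points do not, vertical lines mark the promoters P1 to P9 (dotted where no protein-coding transcript starts), and the dashed line is the list median of 20. The points above 30 are 4 of the run after P3 and 1 of the 4 regions between P1 and P2.

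HBEGF encodes heparin-binding EGF-like growth factor, a ligand of EGFR and ERBB4. It held no region in its body or upstream flank, and its 7 regions lay downstream of it on chromosome 5, in a stretch of 29.7 kb. For 5 of them the nearest protein-coding start was that of PFDN1, a subunit of the prefoldin chaperone, and for 2 it was that of HBEGF, at 10.1 and 12.2 kb. The highest fold was at 140310735 to 140311283, the region whose AP-1 site is shown above, with 10.5-fold enrichment at a pileup of 40 (28.6 to 54.5). Its neighbour at 140311957 to 140312551 had 8.73-fold enrichment at a pileup of 33. The highest pileup of all 59 regions, 67 (51.9 to 85.1), was at 140295409 to 140295758 inside PFDN1, 2.35 kb from its start, with a local background of 7.36 fragments and a fold of 8.13. The next in this window, 49 (36.3 to 64.8), was also inside PFDN1, at 140297891 to 140298720, over a local background of 7.64 fragments, and its fold was 5.79. The region nearest to an HBEGF start, at 140324788 to 140325108, had a pileup of 25 (16.2 to 36.9). Regions with the highest pileups in this window were thus those of the neighbouring gene.

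AREG, which encodes amphiregulin, and EREG, which encodes epiregulin, are adjacent EGFR ligand genes on chromosome 4. AREG had 1 region in its body, in intron 4 at 74451230 to 74451420, with 7.05-fold enrichment at a pileup of 20 (12.2 to 30.9), 2.69 kb from an AREG start. EREG had 2 records in intron 1, with 129 bp between them. The wider one, at 74374647 to 74375276, had 7.91-fold enrichment at a pileup of 25 (16.2 to 36.9). The narrow one, at 74374415 to 74374517, had the lowest fold and the lowest pileup of all 59 regions, 2.73 and 8 (3.45 to 15.8). The 2 regions that both windows share lie between the genes. That at 74394767 to 74395498 had a fold of 7.07 with a pileup of 17 (9.90 to 27.2), and that at 74418166 to 74418736 had a fold of 8.76 with a pileup of 23 (14.6 to 34.5). Downstream of AREG were regions at 74473062 to 74473498, with 6.68-fold enrichment at a pileup of 16 (9.15 to 26.0), and at 74501458 to 74502025, with 8.85-fold enrichment at a pileup of 28 (18.6 to 40.5). Of the 7 different regions in these windows 4 held an AP-1 site, and no other protein-coding gene was nearer to any of the 7 than AREG or EREG.

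TGFA, which encodes transforming growth factor alpha, and BTC, which encodes betacellulin, held no region in windows of 207 and 150 kb. Among other protein-coding genes of 0.5 to 2 times the length, the median window held 1.00 region for either gene. The nearest region to TGFA was 65.1 kb from its body, with a pileup of 11, and the nearest to BTC was 61.6 kb from its body, also with a pileup of 11. A list of regions over a threshold does not show whether weaker signal was present there.

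EGFR, the receptor of most ligands above, had 10 regions in its window on chromosome 7, and for all 10 its own start was the nearest protein-coding one. Of these 7 were in the body, 2 upstream and 1 downstream. Intron 1 held 5 of them, between 33.3 and 115 kb from the first start. The highest fold was upstream, 9.40 at 54985432 to 54985866, with a pileup of 27 (17.8 to 39.3), 33.4 kb before the gene. The second was 8.92 in intron 1 at 55052044 to 55052434, with a pileup of 23 (14.6 to 34.5). The third was 8.70 at 54995896 to 54996275, 23 kb before the gene, with a pileup of 19 (11.4 to 29.7). The highest pileups, 43 (31.1 to 57.9) and 40 (28.6 to 54.5), belonged to the adjacent regions at 55132658 to 55133206 and 55133784 to 55134139 in intron 1, which lie 577 bp apart. Their local backgrounds were 5.04 and 4.66 fragments, the highest of the gene, and their folds of 7.29 and 7.25 were near the list median. No region lay at the main EGFR promoter. The region nearest to any EGFR start, at 55192736 to 55193063, lay over exon 22 with its summit 0.029 kb from the start of a shorter annotated transcript, and had a pileup of 14 (7.65 to 23.5). Another, in intron 20 at 55186256 to 55186690, also lay inside the antisense gene EGFR-AS1, and the downstream region lay inside the noncoding gene ELDR.

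ERBB4, a neuregulin receptor, had 7 regions in a body of 1163 kb on chromosome 2 (minus strand). Intron 1 held 5 of them within 60.3 kb, between 86.8 and 147 kb from the start, and intron 2 held the other 2 at 486 and 506 kb. The remainder of the gene towards its 3′ end held none. The highest fold and pileup were at 212421789 to 212422242, with 9.19 and 33 (22.7 to 46.3), 7.18 kb from the nearest annotated ERBB4 start. The region at 212392021 to 212392292, whose 2 AP-1 sites are shown above at 48 and 75 bp from the summit, had 9.16-fold enrichment at a pileup of 24 (15.4 to 35.7). The region at 212451662 to 212452320 had 7.75-fold enrichment at a pileup of 28 (18.6 to 40.5). A narrow record with a pileup of 9 and a fold of 3.39 ended 48 bp before the wider record at 212409624, much as at EREG. All 7 ERBB4 regions were thus intronic.

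ERBB2 had 1 region, on chromosome 17 from 39687729 to 39688299, with 6.22-fold enrichment at a pileup of 17 (9.90 to 27.2). Its summit lay 0.085 kb after the ERBB2 gene start and 0.002 kb from a start of PGAP3, which is transcribed the other way, and the region overlapped exons of both. It could therefore not be assigned to either gene. It had a GC content of 59.2% and no AP-1 site.

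ERBB3, the receptor with the weak kinase, had no region in its body. Of the 7 regions in its flanks on chromosome 12, 6 lay within 3 kb of a transcript start. The highest fold of all 59 regions, 12.5 with a pileup of 36 (25.2 to 49.8), was at 56104141 to 56104612, 0.051 kb from a start of PA2G4. PA2G4 encodes EBP1, a protein named for its binding to ERBB3, and this region lay 4.62 kb from the nearest ERBB3 transcript start. Over RPS26, a ribosomal protein gene, 2 records lay with 51 bp between them, with pileups of 24 (15.4 to 35.7) and 13 (6.92 to 22.2). The regions at 56117930 to 56118507, with a pileup of 31 (21.1 to 44), and at 56127629 to 56128369, with a pileup of 27 (17.8 to 39.3), were at starts of ESYT1, the first of them also over exons of RPL41 and ZC3H10. The last was at a start of MYL6B. A single region was nearest to ERBB3 itself, at 56071726 to 56072211, 4.83 kb upstream, with 8.32-fold enrichment at a pileup of 17 (9.90 to 27.2). The count of ERBB3 thus rested on the promoters of its neighbours.

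**Figure D4:**
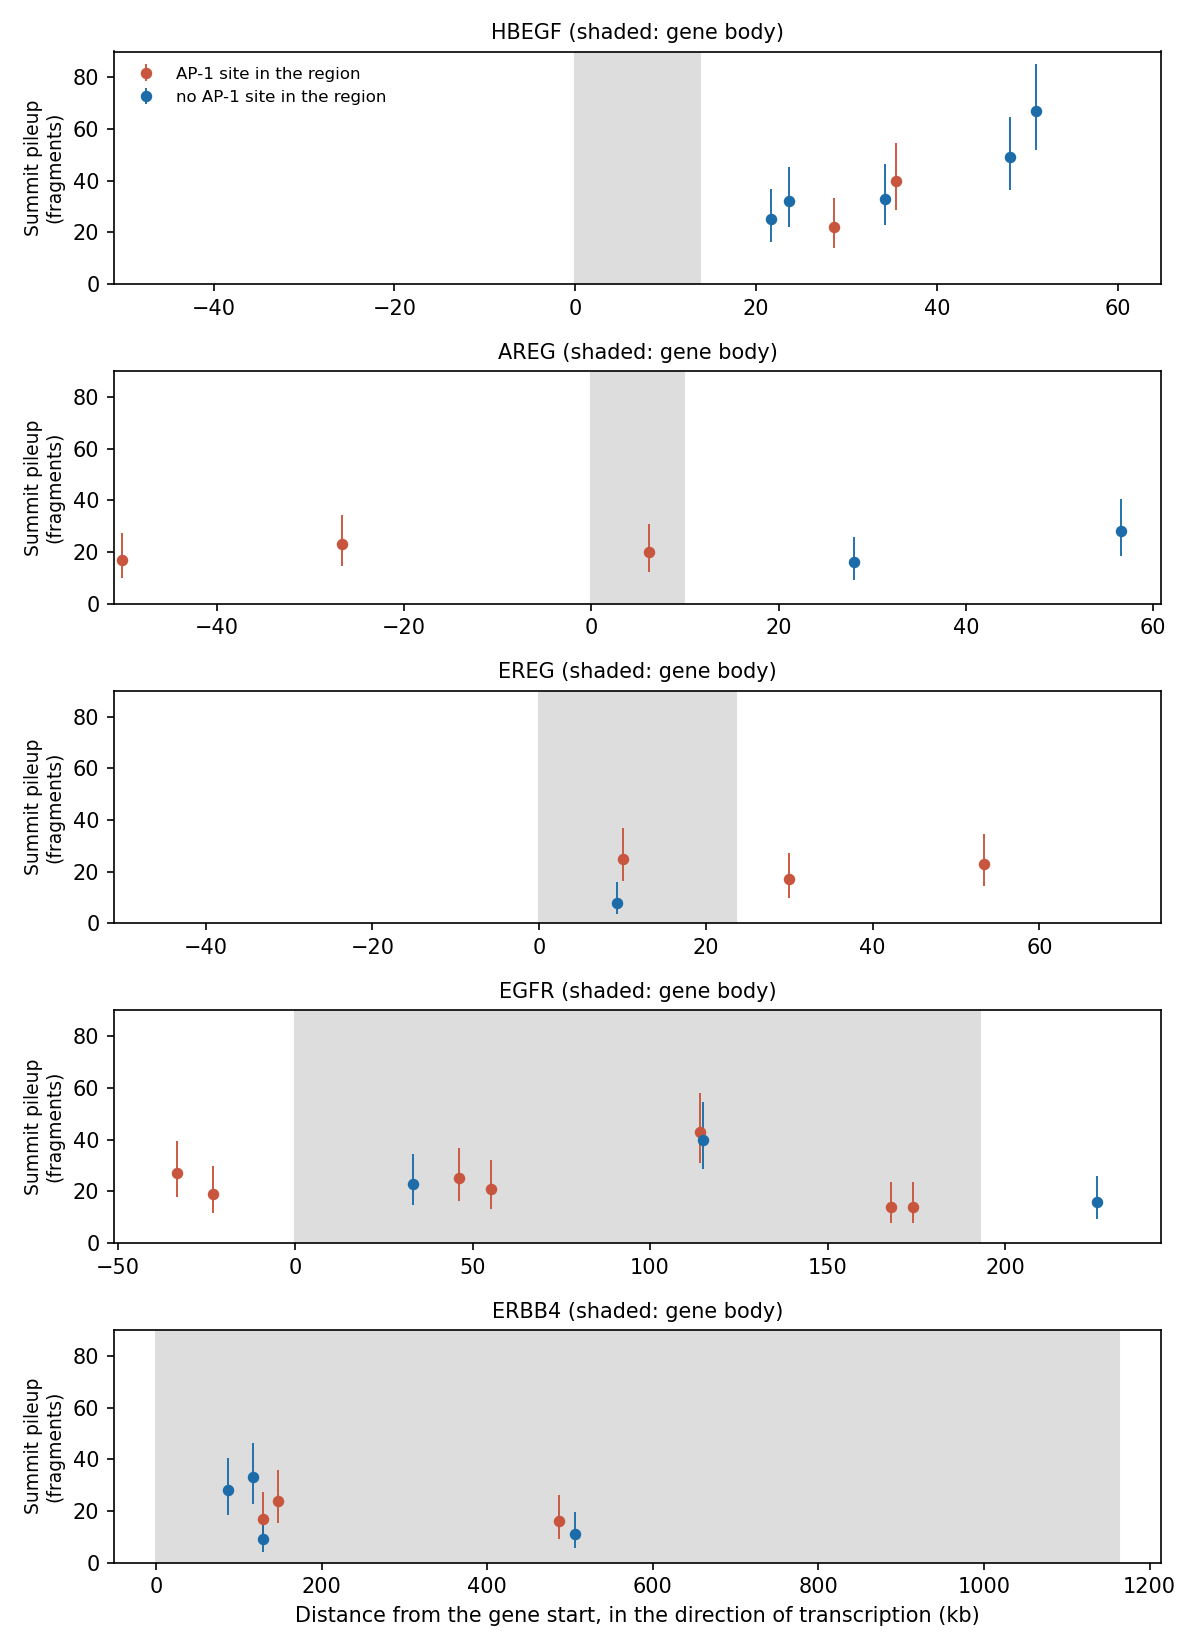
Summit pileup in fragments with exact 95% Poisson limits (vertical axes) by distance in kb from the gene start in the direction of transcription (horizontal axes) for HBEGF, AREG, EREG, EGFR and ERBB4, with the gene body shaded, AP-1 regions in red and others in blue. The HBEGF points are all right of the gene and reach 67, and the ERBB4 points all lie within 506 kb of its start.

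The edge of the windows decided some memberships. The region shared by AREG and EREG at 74394767 to 74395498 ended 49.6 kb before the AREG body and was just inside its window, with a fold of 7.07. The MYL6B region was 48.7 kb from ERBB3 and just inside, with a fold of 7.18. Just outside were a region 54.5 kb from HBEGF with a fold of 5.77, one 54.7 kb from ERBB3 at MYL6 with a fold of 9.58, and one 58.9 kb from ERBB4 with a fold of 7.88.

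Sites for AP-1, the FOS and JUN dimer that acts downstream of these receptors, were then counted. The site TGAGTCA was present in 28 of the 59 regions (47.5%, exact 95% binomial limits 34.3% to 60.9%), and 44.1% of all full-length regions held it. Ligand windows had it in 17 of 34 regions (50.0%, 32.4% to 67.6%) and receptor windows in 11 of 25 (44%, 24.4% to 65.1%). NRG1 had it in 11 of 20 (55.0%, 31.5% to 76.9%), EGFR in 7 of 10, AREG in 3 of 5, EREG in 3 of 4, ERBB4 in 3 of 7, HBEGF in 2 of 7, ERBB3 in 1 of 7 and ERBB2 in 0 of 1. Away from promoters, in the regions more than 3 kb from a transcript start, it was present in 24 of 45 regions (53.3%, 37.9% to 68.3%), where the whole list had 52.6%. The share at these genes was near that of the list in either comparison, and no enrichment of the site can be read from it.

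The regions of members' bodies held the site in 21 of 38 cases (55.3%, 38.3% to 71.4%) and the flank regions in 7 of 21 (33.3%, 14.6% to 57.0%). Of the flank regions 9 were at promoters, against 5 of the body regions. Away from promoters the site was present in 18 of 33 body regions (54.5%, 36.4% to 71.9%) and in 6 of 12 flank regions (50.0%, 21.1% to 78.9%). At promoters it was present in 3 of 5 body regions and in 1 of 9 flank regions. The part of promoters in the gap between bodies and flanks was not tested. Within 100 bp of the summit, 17 of 59 windows of sequence held the site (28.8%, 17.8% to 42.1%), and 32.3% did over the list. The 28 regions held 32 sites, at a median of 75 bp from the summit, with 13 of them (40.6%) within 50 bp. Over the list the median was 67.0 bp and 39.5% were within 50 bp. Regions with and without a site had nearly equal median folds, 7.06 and 7.08, and median pileups of 19.5 and 25. In NRG1 the region of highest pileup, 55, held a site, and the next 3, with pileups of 50, 37 and 35, held none.

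**Figure D5:**
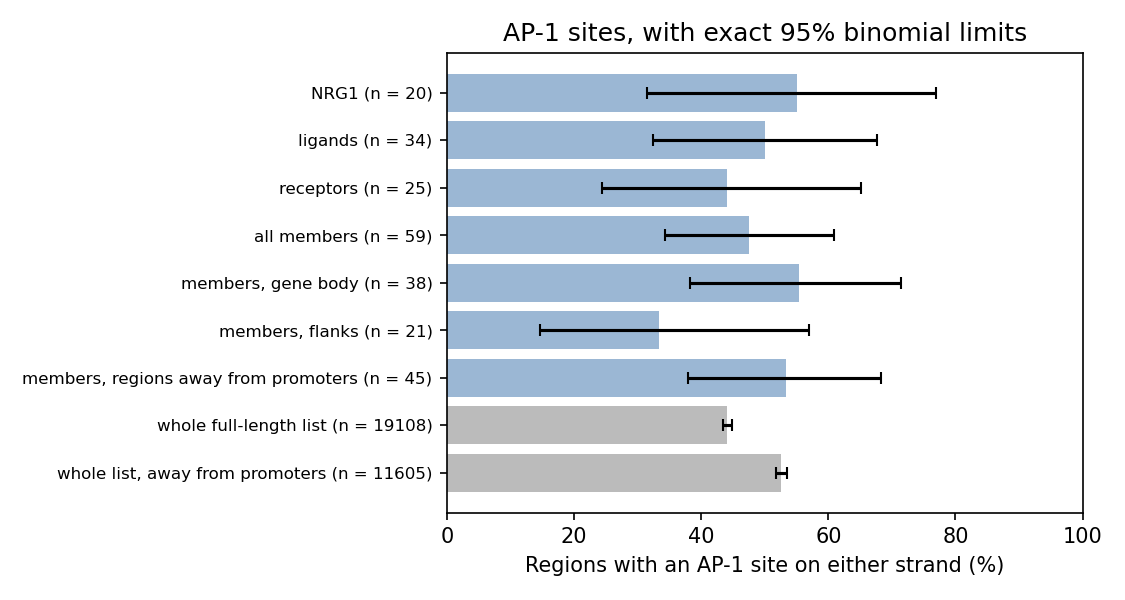
Percent of regions with an AP-1 site on either strand (horizontal axis) for sets of member regions (blue) and for the whole list (grey), with exact 95% binomial limits. The limits of every member set include the whole-list value of 44.1%.

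Of the RefSeq promoter sequences, which are short stretches around annotated starts, 10 belonged to 8 of the 10 genes. The site was found in 1 of the 10, at EGFR, and in 4.95% of all 35116 promoters. As no ZNF469 region lay at the main EGFR promoter, these data do not bear on that site.

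With the zinc finger deletion, none of the 10 windows held a region, and 0.210% of all protein-coding windows did, 42 of 20033. A count of 0 among 10 windows is near that background and says little about these genes. The nearest dZF region was 992 kb from the BTC window and 1110 kb from the EGFR window. At the lowest local background the full-length pool was 1.38 times as deep as the dZF pool, a ratio that rests on only 54 dZF records. When the member pileups and backgrounds were scaled down by that ratio, 51 of 59 (86.4%) kept a −log10 p-value higher than 7.62, the weakest of the dZF list, as did 85.3% of the whole full-length list. The value 7.62 is not a calling threshold, as the full-length list goes down to 2.16. The scaling also does not repeat the filter by irreproducible discovery rate. Whether these regions would be called at the lower depth was therefore not tested. The construct and the cell line changed together, and the amounts of the 2 proteins were not analysed here.

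Other genes of the pathway were read from a list of 33. Full-length regions were present in the windows of 26 of them (78.8%) and in the bodies of 20 (60.6%), where all protein-coding genes had them in 65.1% of windows and 33.6% of bodies. These shares were not matched for gene length and the differences were not tested. No window of the 33 held a dZF region. Of the 5 other ligand genes 4 had a region, as did both sheddase genes, 13 of 19 adaptor and effector genes and all 7 feedback regulators. At least 5 regions were present in 3 of the 33 windows (9.09%), near the 8.80% of all protein-coding windows, and these were the windows of SHC1, LRIG1 and ERRFI1. SHC1, which encodes an adaptor that links the receptors to RAS, had 6 regions, of which 2 were in its body, with a pileup of up to 51. LRIG1, a membrane protein that promotes degradation of EGFR, had 6, of which 4 were in its body, with a fold of up to 11.7. ERRFI1, which encodes the feedback inhibitor MIG6, had 5, of which 1 was in its body and 3 held an AP-1 site. The list median was 1.00 region per window, equal to that of all protein-coding genes.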

How the data were processed

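CUT&RUN libraries of LX-2 cells, 3 per construct, were grouped by the construct named in the labels. Per the submitters' processing notes the authors used Bowtie2 2.3.4.3, MACS2 2.2.5 and hg38, and the deposited files are 1 list per group, filtered by irreproducible discovery rate. Whether a control was used is not given in the sources used here. The deposited values are a fold ratio over local background and a −log10 p-value per region. From these the whole-number pileup at the summit and its background were recovered (largest miss 6.9e-05 in −log10 p, and 100% of 1000 simulated records were returned). Total reads per library were not analysed here. Records were not merged. Gene bodies and starts came from GENCODE 44, with Python 3.11.15, pandas 2.3.3 and pysam 0.24.0. All 10 members were named. Single regions were described in windows of up to 5 regions, and otherwise the 3 highest by fold, the 3 highest by pileup and the nearest to a start, with pathway genes named at 5 or more regions. Members, lists and settings were chosen with earlier results of these data known. With 1 pooled list per group, no test was made.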

Additional observations from a re-analysis of the deposited data

How the results depend on the processing

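No paired analysis was possible because the 3 libraries of a group were merged into 1 list before deposition, and leaving out each replicate in turn was not possible either. Without flanks, 38 regions remained in all and 15 at receptors. Among the upper 50% of the list by fold there were 23 member regions, with 6 at NRG1, 12 at ligands and 11 at receptors. Among the upper 25% by fold these were 13, 3, 7 and 6, and among the upper 25% by −log10 p-value 15, 5, 10 and 5. Such cuts shorten the whole list as well. Within 3 kb and 20 kb of an NRG1 start there were 1 and 8 regions. The AP-1 site was within 100 bp of the summit in 28.8% of member regions. The other 54 of 71 recomputed values stayed within 1.5 times the count or within the counting limits, among them the counts with records closer than 500 bp joined, a setting chosen after seeing the data that left 56 member regions. With TGANTCA the AP-1 share was 59.3% at members and 56.1% over the list. The dZF count was 0 in every setting tried, but only the wider flank of 100 kb could have raised it. The other settings narrow the windows, shorten the list or join records, so their 0 was fixed in advance. These dZF values are among the 54 that stayed. Depth could be judged only from summit pileups, 8 to 67 fragments at members, and from the lowest local backgrounds. Signal under the authors' threshold was not analysed here.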

Other observations

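Other motifs were counted within 100 bp of the summits. The TEAD core GGAATG, on either strand, was present in 10 of the 59 member regions (16.9%) and in 21.1% of the whole list. The RUNX core TGTGGT was present in 6 (10.2%) and in 17.5% of the list, and in 0 of the 20 NRG1 regions. These differences were not tested.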
